A study of Mus musculus with 8 samples.

Results

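Described here are 10 genes of the inflammatory cytokine and NF-kB feedback circuit in mouse microglia, chosen by name from the 35583 genes of the deposited tables. They are the cytokines Il1a, Il1b, Tnf, Il6 and Il18, the antagonist Il1rn, the receptor chain Il10ra, and the feedback genes Nfkbia, Nfkbiz and Tnfaip3. All 10 were found, 1 row each. Microglia are the resident macrophages of the brain. Here they came from the hypothalamus of young mice, wild-type by label, and were sorted 20 hours after an injection of plasma protein tagged with a dye. Cells carrying the label (plasma-positive, 4 libraries) were compared with cells that did not (plasma-negative, 4 libraries). Strain, sex, exact age and the number of animals behind a library are not given in the sources used here, nor is whether both groups came from the same animals. By the labels both groups share the injection, the genotype and the tissue, and no library from uninjected mice was analysed here. The labels do not say whether the 4 replicates of a group came from separate animals, so p-values measure the spread between these libraries, which may be partly technical.

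NF-kB is a transcription factor that IkB proteins hold in the cytoplasm until the IKK kinase marks them for destruction. Once in the nucleus it switches on cytokine genes, and with them the genes of its own brakes, among which are the IkB protein of Nfkbia and the ubiquitin-editing enzyme A20 of Tnfaip3. In microglia the circuit responds to ligands of Toll-like, IL-1 and TNF receptors, and IL-10 signalling through Il10ra restrains it.

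None of the 10 genes passed the test between plasma-positive and plasma-negative microglia. Of the 9 that had enough counts to be tested, 0 were called by edgeR's quasi-likelihood test at an adjusted p under 0.05, where 1.41% of all 13277 tested genes were called (112 higher and 75 lower). At an unadjusted p under 0.05 the count was also 0 of 9, against 13.8% of all tested genes, and DESeq2 and limma-voom also gave 0 at either threshold. Limma on RPKM called 0, with 1 of 9 at an unadjusted p under 0.05. At that unadjusted threshold edgeR had 2 of 9 with library totals only and with a correction for exon length, and at most 3 of 10 when a library was left out (plasma-negative replicate 3). The 9 log2 fold changes were above 0 for 5 genes and below 0 for 4, with a median of 0.05, beside 0.01 for all tested genes. Groups overlapped for all 9 tested members (0 without overlap), where 10.3% of all tested genes did not overlap. Il1rn, with too few counts for the test, was the one gene of the 10 whose libraries did not overlap. It was seen in every plasma-positive library and in no plasma-negative one.

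Sequence just upstream of the transcription start is shown for the 3 members that hold the binding consensus of NF-kB there, because that factor is the link between the cytokines and their inhibitors. Promoter windows of RefSeq on build GRCm38.p6, from 250 bases before to 50 after a start, were at hand for 8 of the 10 genes (11 windows). The 10-letter NF-kB consensus was searched on both strands. It was found in windows of Il6, Nfkbia and Tnfaip3, and in 8.46% of all 32851 windows of that length. The 140 bases before each RefSeq start are printed 5′ to 3′ on the strand of the gene, with the match in capitals.
Il6, chr5:30012974-30013113, plus strand: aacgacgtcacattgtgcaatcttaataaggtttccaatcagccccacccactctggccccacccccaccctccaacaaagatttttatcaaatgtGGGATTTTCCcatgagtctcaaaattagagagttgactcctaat
Nfkbia, chr12:55492648-55492787, minus strand: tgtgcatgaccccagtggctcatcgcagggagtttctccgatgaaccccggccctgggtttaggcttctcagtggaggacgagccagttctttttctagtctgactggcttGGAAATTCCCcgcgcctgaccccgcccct
Tnfaip3, chr10:19015411-19015550, minus strand: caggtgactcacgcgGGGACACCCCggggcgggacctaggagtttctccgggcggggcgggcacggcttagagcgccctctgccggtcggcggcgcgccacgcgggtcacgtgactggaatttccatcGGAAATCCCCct

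The match of Il6 lay 44 to 35 bases before the start and that of Nfkbia 29 to 20 bases before it. Tnfaip3 had a pair of matches, at 125 to 116 and at 12 to 3 bases. The gene span of the tables reaches further upstream than this RefSeq start, through another annotated transcript, so the stretch printed for Tnfaip3 lies inside that span. The AP-1 motif TGANTCA was found on either strand in windows of Il1a, Il1rn, Il6 and Tnfaip3, and in 7.81% of all windows. The PU.1 motif GAGGAAGT was found in no window of the members and in 3.2% of all windows. A match describes letters only, and nothing in these libraries measures binding. The log2 fold changes of the 3 genes with the NF-kB consensus were -0.81 (Il6), -0.23 (Nfkbia) and -0.25 (Tnfaip3), none of them past the test.

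Per exon length, the 10 genes spanned a wide range of levels. RPKM, reads scaled to exon length in kilobases and to library size, is the deposited unit that allows genes to be compared with each other. Averaged over the 8 libraries, Nfkbia stood at 96.3 RPKM and Il10ra at 87.3, above 97.8% and 97.6% of tested genes. Il1a followed at 41.2 and Il18 at 22.7 RPKM. Il6 stood at 4.55, Tnfaip3 at 4.03, Tnf at 1.65, Nfkbiz at 1.56, Il1b at 0.713 and Il1rn at 0.155 RPKM. Thus the inhibitor Nfkbia and the receptor chain Il10ra were the highest of these transcripts, and the antagonist and Il1b the lowest.

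In this order the ranges of neighbours over the 8 libraries were apart for Il10ra over Il1a and for Il18 over Il6. Il1a was above Il18 within each of the 8 libraries, and so was Tnfaip3 above Tnf, although their ranges overlapped. Nfkbia exceeded Il10ra in 5 libraries, namely all 4 plasma-negative ones, at 92.7 to 105 RPKM against 78.1 to 90.2, and 1 of 4 plasma-positive ones. Il6 exceeded Tnfaip3 in 3 libraries, Tnf exceeded Nfkbiz in 4 and Il1b exceeded Il1rn in 4, with ranges that overlapped, while Nfkbiz exceeded Il1b in 7.

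**Figure D1:**
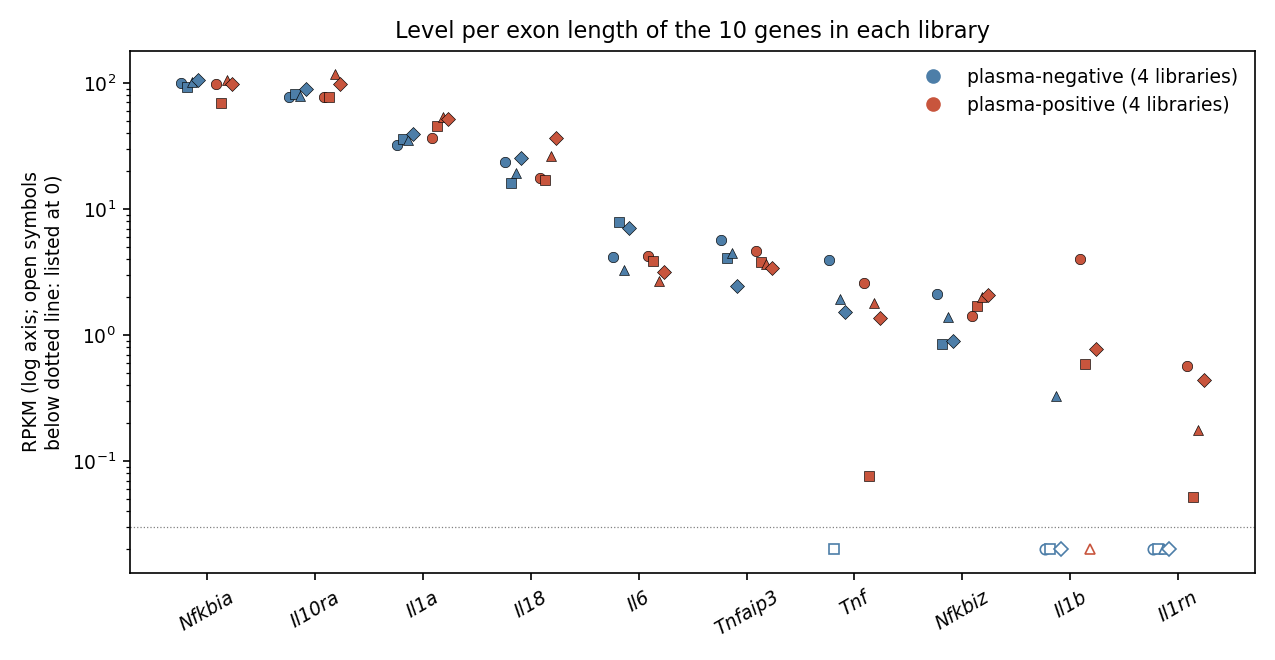
Deposited RPKM (log axis) of the 10 genes in the 4 plasma-negative (blue) and 4 plasma-positive (red) libraries, ordered by mean, with circles, squares, triangles and diamonds for replicates 1 to 4 and open symbols for values listed at 0. Nfkbia and Il10ra lie highest, at 68.7 to 117 RPKM, and values of 0 occur for Tnf, Il1b and Il1rn.

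By role, the genes are given in CPM, which divides counts by a library size adjusted with edgeR's trimmed mean (TMM) factors, as the test does. Total counts ranged from 2963094 to 21422738 per library, and plasma-negative replicate 4 was the smallest. The files' gene counts made up 68.9% to 74.6% of the total used for RPKM in plasma-negative and 81.4% to 84.2% in plasma-positive libraries, so fold changes between the groups are given on CPM, and fits on RPKM serve as alternatives only. In bulk libraries, fewer cells that express a gene and less RNA of it per cell cannot be told apart.

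Il1a and Il1b encode the alpha and beta forms of interleukin 1, which act on the same receptor. Positions here and for the genes that follow are those of the tables, on mm10. The genes are neighbours on chromosome 2 (129299610 to 129309972 and 129364570 to 129371139, minus strand), yet their transcripts behaved differently. Il1a (ENSMUSG00000027399) was present in every library, at 86.7, 98.2, 95.5 and 103 CPM in plasma-negative replicates 1 to 4 and at 90.4, 110, 132 and 133 CPM in plasma-positive ones. Plasma-positive replicates 2 to 4 lay above all plasma-negative libraries and replicate 1 within them, so the groups overlapped. Means were 95.9 ± 6.84 and 116 ± 20.3 CPM (SD, n = 4). The log2 fold change was 0.28 with a 95% interval of -0.07 to 0.63 (edgeR, adjusted p = 0.493). It was 0.17 with library totals only and 0.11 with a correction for exon length, or 0.091 with the replicate number as a block too, but 0.38 and 0.39 with limma on RPKM plus 1 and plus 0.1 and 0.38 without plasma-positive replicate 1. Of the exon length of Il1a, 11.2% overlaps Gm14023 on the other strand, and the strand setting of the counting is not given in the sources used here. The same limit holds for genes named below, among them Ctsb (12.8%), Il27 (10.1%), Myd88 (11.3%), Il16 (15.3%) and Csf1r (15.1%).

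Il1b (ENSMUSG00000027398) was sparse. Its counts were 0, 0, 15 and 0 in plasma-negative replicates 1 to 4 and 87, 27, 0 and 17 in plasma-positive ones, or 0 to 0.873 and 0 to 9.57 CPM. It was thus seen in 1 of 4 plasma-negative and 3 of 4 plasma-positive libraries, with plasma-positive replicate 1 far above the rest. The fitted log2 fold change of 3.68 had a 95% interval of -0.42 to 7.77 (edgeR, adjusted p = 0.424), so neither no change nor a very large one can be told from these libraries. Without plasma-positive replicate 1 it was 2.15 (edgeR, adjusted p = 0.77), and without plasma-negative replicate 3, the one plasma-negative library with counts, 8.5 (adjusted p = 0.229). It was 5.67 with the replicate number as a block, and 0.85 and 2.29 with limma on RPKM plus 1 and plus 0.1. A value of 0 allows up to 3 counts, which is 0.133 to 1.01 CPM in the plasma-negative libraries, for counting error only.

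Il1rn (ENSMUSG00000026981, chromosome 2, 24336853 to 24351494, plus strand) encodes the antagonist that occupies the interleukin 1 receptor without signalling. No plasma-negative library had a count of it, over a combined depth in which Il1a had 5466 counts. The plasma-positive libraries had 36, 7, 24 and 28 counts in replicates 1 to 4, or 3.96, 0.356, 1.22 and 3.13 CPM, all above the floor of 3 counts. The mean of 2.17 ± 1.67 CPM (SD, n = 4) was 2.1 times the highest floor of a plasma-negative library, 1.01 CPM in replicate 4. That floor covers counting error only, so the ratio is no firm lower bound. Replicate 4 was too shallow to show a level such as that of plasma-positive replicate 2.

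Il1rn did not pass the default expression filter. Fitted without that filter it was not called (edgeR, adjusted p = 0.136), where 0.932% of 19844 genes with any count were. An exact permutation test of its mean CPM gave a two-sided p of 0.0286 (n = 4 per group), the smallest that 70 assignments allow, so it adds only that the groups do not overlap. Among tested genes, non-overlapping groups were found for 10.3% (5.68% higher and 4.59% lower in plasma-positive libraries). The pattern of 0 counts in every plasma-negative and some in every plasma-positive library was also counted. It held for 34 of the 19844 genes with any count (0.171%), and the opposite pattern for 12 (0.0605%). That base includes genes too abundant to show the pattern. How rare it is among genes at the level of Il1rn was not tested.

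Tnf (ENSMUSG00000024401, chromosome 17, 35199381 to 35202007), the cytokine that gives the tumour necrosis factor family its name, was low and uneven in both groups. Counts were 198, 0, 75 and 10 in plasma-negative and 48, 3, 72 and 26 in plasma-positive replicates 1 to 4. In CPM these were 8.77, 0, 4.37 and 3.36 against 5.28, 0.153, 3.65 and 2.9. Replicate 1 was the highest and replicate 2 the lowest in each group, and the groups overlapped throughout. Its fold change of -0.47 on the log2 scale had a 95% interval of -3.31 to 2.37 (edgeR, adjusted p = 0.924), and it ranged from -0.89 to 0.22 when single libraries were left out, the latter without plasma-negative replicate 1. The coefficient of variation (SD over mean) of the plasma-negative group was 87.6% and that of the plasma-positive group 71.4%, where counting error alone gives 17.4% and 16.4%.

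Il6 (ENSMUSG00000025746, chromosome 5, 30013114 to 30019981), a cytokine that drives the acute phase response, had the most negative log2 fold change of the 10. It stood at 13.9, 26.8, 11 and 22.9 CPM in plasma-negative and at 12.8, 11.5, 8.12 and 9.94 CPM in plasma-positive replicates 1 to 4. Plasma-negative replicates 1, 2 and 4 were above all plasma-positive libraries, and replicate 3 lay inside the plasma-positive range. Means were 18.6 ± 7.43 and 10.6 ± 2.01 CPM (SD, n = 4). The log2 fold change was -0.81 with a 95% interval of -1.71 to 0.09 (edgeR, unadjusted p = 0.0729, adjusted p = 0.423), and leaving out single libraries gave -0.996 to -0.575. Limma on RPKM plus 1 and plus 0.1 gave -0.51 and -0.61.

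Il18 (ENSMUSG00000039217, chromosome 9, 50554827 to 50581840), whose product is stored as an inactive precursor that caspase-1 cleaves, varied most among the abundant cytokines of the plasma-positive group. It stood at 33, 23.2, 27.6 and 35 CPM in plasma-negative and at 22.7, 21.4, 33.5 and 48.4 CPM in plasma-positive replicates 1 to 4. The plasma-positive group thus held both the lowest pair and the highest library. The difference was 0.09 on the log2 scale with a 95% interval of -0.60 to 0.77 (edgeR, adjusted p = 0.943), and its sign depended on the scaling (-0.029 with library totals only) and on 2 libraries (-0.19 without plasma-positive replicate 4 and -0.013 without plasma-negative replicate 2).

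Il10ra (ENSMUSG00000032089, chromosome 9, 45253837 to 45269149), the ligand-binding chain of the interleukin 10 receptor, had the narrowest interval of the 9 tested genes. Its counts ranged from 1253 to 10006 per library. It stood at 374, 398, 378 and 422 CPM in plasma-negative and at 341, 331, 508 and 445 CPM in plasma-positive replicates 1 to 4. Plasma-positive replicates 1 and 2 lay below and replicates 3 and 4 above every plasma-negative library. Means were 393 ± 22.0 and 406 ± 84.9 CPM (SD, n = 4), and the log2 fold change was 0.05 with a 95% interval of -0.25 to 0.35 (edgeR, adjusted p = 0.924). The sign turned to -0.065 with library totals only and to -0.074 without plasma-positive replicate 3.

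Nfkbia (ENSMUSG00000021025, chromosome 12, 55489410 to 55492647) encodes IkB-alpha, which binds NF-kB and is itself induced by it. It was even across plasma-negative libraries, at 220.1, 207, 226 and 227 CPM, and stood at 196, 136, 212 and 204 CPM in plasma-positive replicates 1 to 4. Plasma-positive replicates 1, 2 and 4 lay below every plasma-negative library, and replicate 3 within their range. Means were 220.1 ± 9.15 and 187 ± 34.7 CPM (SD, n = 4). On the log2 scale the change was -0.23 with a 95% interval of -0.55 to 0.08 (edgeR, adjusted p = 0.525), and -0.11 without plasma-positive replicate 2. It was -0.13 with limma on RPKM and -0.44 (edgeR, adjusted p = 0.261) with a correction for exon length, and did not pass there either.

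Nfkbiz (ENSMUSG00000035356, chromosome 16, 55811375 to 55838899) encodes IkB-zeta, a nuclear relative that acts with NF-kB on a subset of its targets. It stood at 14.4, 5.98, 9.66 and 6.06 CPM in plasma-negative and at 8.91, 10.4, 12.4 and 13.5 CPM in plasma-positive replicates 1 to 4. The highest and the lowest library were both plasma-negative. On the log2 scale it differed by 0.32 with a 95% interval of -0.71 to 1.35 (edgeR, adjusted p = 0.845). It was 0.64 without plasma-negative replicate 1, 0.16 without replicate 2 and 0.18 without replicate 4 of that group.

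Tnfaip3 (ENSMUSG00000019850, chromosome 10, 19000910 to 19015657) encodes A20, which removes activating ubiquitin chains upstream of IKK. It stood at 56.1, 40.9, 45.1 and 23.6 CPM in plasma-negative and at 42.1, 33.6, 32.8 and 31.7 CPM in plasma-positive replicates 1 to 4. All plasma-positive values lay inside the plasma-negative range, whose low end rests on replicate 4 with 70 counts. Its change of -0.25 on the log2 scale had a 95% interval of -0.85 to 0.35 (edgeR, adjusted p = 0.764). It was -0.43 without that library (adjusted p = 0.435) and -0.071 without plasma-negative replicate 1 (adjusted p = 0.955). Limma on RPKM gave -0.054 and -0.056 with pseudocounts of 1 and 0.1, and the correction for exon length -0.16.

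**Figure D2:**
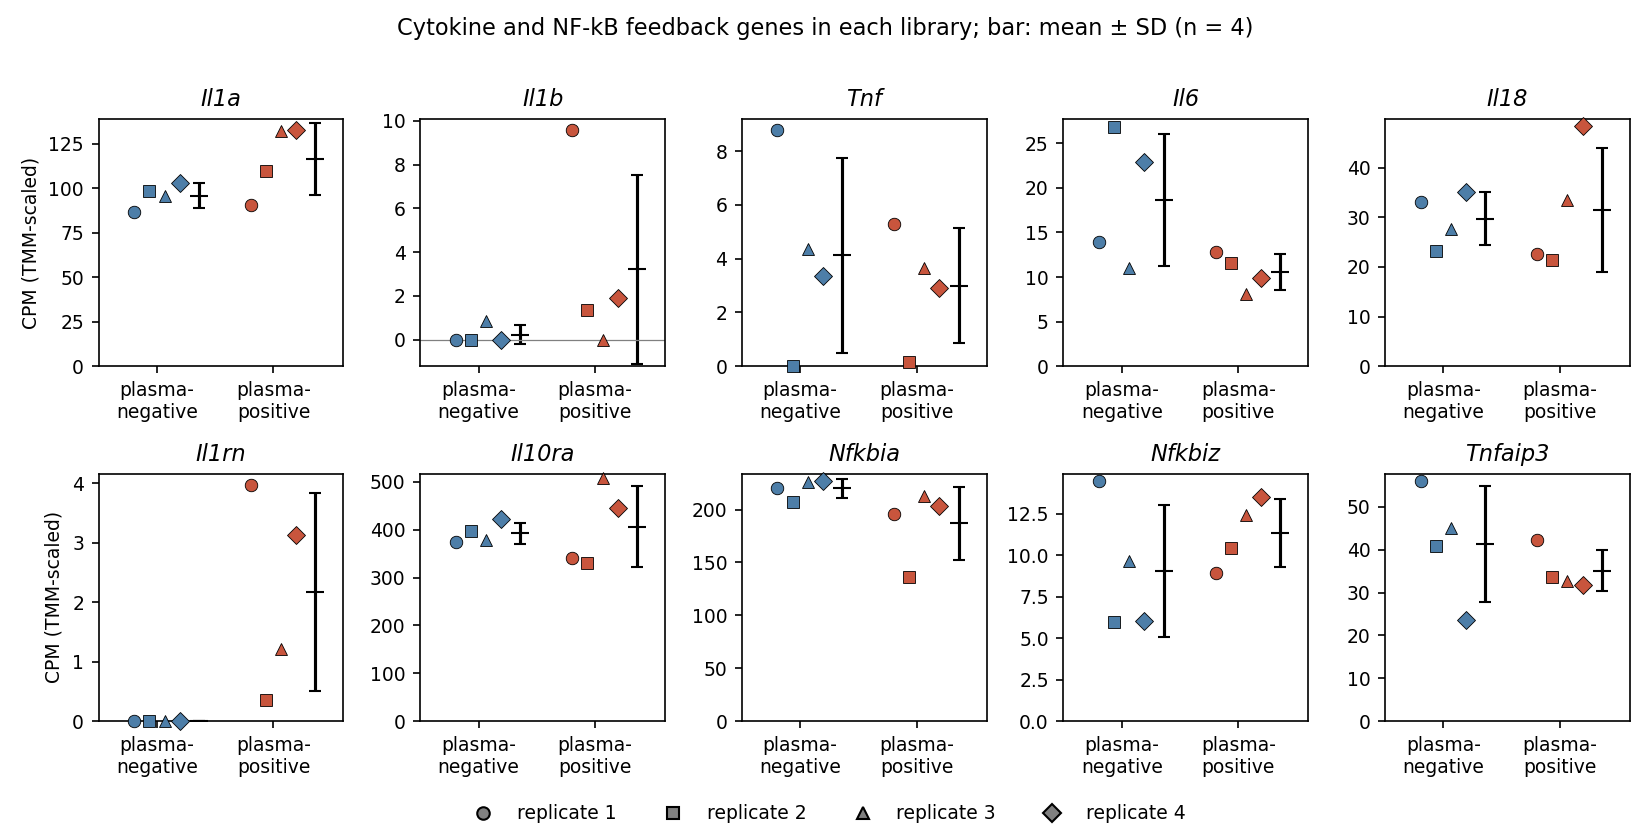
TMM-scaled CPM of each gene by library (symbols: replicate numbers), with the mean and SD of the 4 libraries per group as a bar. Only Il1rn has groups that do not overlap, with plasma-negative libraries at 0 and plasma-positive ones at 0.356 to 3.96 CPM.

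**Figure D3:**
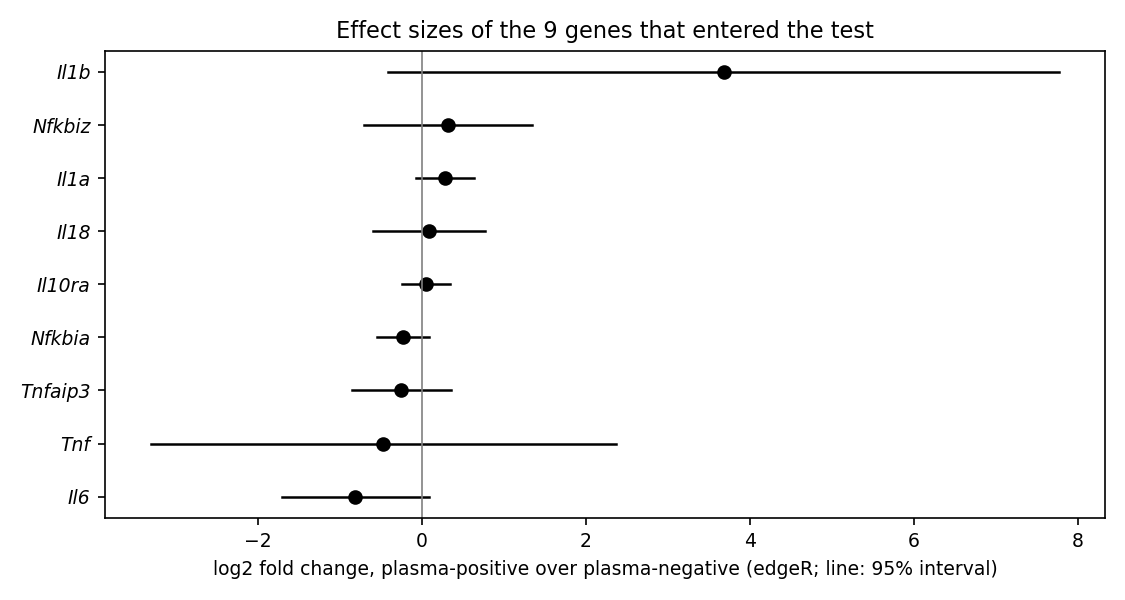
Log2 fold change, plasma-positive over plasma-negative, with its 95% interval for the 9 tested genes. Every interval includes 0, and intervals are narrowest for Il10ra (-0.25 to 0.35) and widest for Il1b (-0.42 to 7.77).

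The spread between libraries differed from member to member. In plasma-negative libraries the coefficient of variation was 4.16% for Nfkbia, 5.61% for Il10ra and 7.13% for Il1a, against 2.39%, 1.79% and 3.62% from counting error alone. In plasma-positive libraries the same measure was 18.5%, 20.9% and 17.4% for them, so they were less even there. Il6, Nfkbiz and Tnfaip3 went the other way, with 39.8%, 44.2% and 32.6% among plasma-negative libraries against 19.0%, 18.2% and 13.6% among plasma-positive ones. With 4 libraries a group, these differences in spread were not tested.

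By the root mean square difference of centred log2 CPM over the 8 libraries, the genes most like Nfkbia among those of at least 32 CPM were Smad7, Sec63 and 4931406C07Rik, at 0.0887, 0.0895 and 0.099, where Nfkbia itself varied by 0.225. For Il1b the nearest were Prune2, Srpk1 and Paip1 at 1.68, 1.71 and 1.72, against 2.22 for Il1b itself. Genes at that level cannot share a pattern with 0 counts in 4 libraries, so likeness to Il1b was in effect not measured.

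The wider pathway was read from 8 lists of 97 genes besides the members, of which 78 were tested. Of these, 3 were called higher and 0 lower (edgeR), and the log2 fold change was above 0 for 42 and below 0 for 36, with a median of 0.03. The called genes were Rela, Ctsb and Ccl5, where the share of all tested genes called higher was 0.844%. Without plasma-positive replicates 2 and 3 none of the 3 was called (edgeR, adjusted p 0.212, 0.0685 and 0.0618), with 2 fewer libraries and fitted log2 fold changes for Rela and Ctsb of 0.64 and 0.42. Ccl5 had 0 counts in every plasma-negative library and so entered the test through the plasma-positive group; 9 of the 11 tested genes with counts in all plasma-positive libraries and no plasma-negative one were called. Non-overlapping groups were found for 9 of the 78 higher and 2 lower, where the shares of all tested genes were 5.68% and 4.59%.

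Among the 5 NF-kB subunits, 1 was called. Rela, which encodes the transactivating subunit p65, rose from 157 ± 12.8 to 235 ± 25 CPM (SD, n = 4). Its values were 161, 156, 172 and 141 CPM in plasma-negative and 270.3, 214, 234 and 221 CPM in plasma-positive replicates 1 to 4, with no overlap. Its log2 fold change was 0.57, with a 95% interval of 0.31 to 0.84 (edgeR, adjusted p = 0.0423). The call was lost whichever of the 8 libraries was removed (edgeR, adjusted p 0.073 to 0.128), while the log2 fold change stayed at 0.50 to 0.62. It was also lost with the replicate number as a block (0.57, adjusted p = 0.097), relative log expression (0.55, 0.052), library totals only (0.46, 0.0998), thinning (0.56, 0.0561) and a correction for exon length (0.44, 0.17). It was kept with DESeq2 (adjusted p = 0.00098), limma on RPKM plus 1 and plus 0.1 (0.00987 and 0.0107), limma-voom (0.0438), upper quartile (0.0346), no filter (0.0476) and the 1 CPM filter (0.0405). The other 4 subunits, Nfkb1, Nfkb2, Rel and Relb, were not called, with log2 fold changes below 0 and a list median of -0.15.

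Of the 16 genes of the IKK complex and its adaptors, all tested, 0 were called, with 5 above and 11 below 0 and a median of -0.22. Myd88, the adaptor of Toll-like and interleukin 1 receptors and the highest of them per length, went from 85 ± 28.1 to 103 ± 15.4 CPM (SD, n = 4; edgeR, log2 fold change 0.28, adjusted p = 0.672). Its log2 fold change was 0.51 and 0.13 without plasma-negative replicates 2 and 3, and 0.13 with the correction for exon length. Of 15 further feedback genes, 13 were tested and 0 called, with a median of 0.01. Zfp36, whose product promotes decay of cytokine mRNA, had a log2 fold change of -0.12 (edgeR, adjusted p = 0.858), and its sign turned to 0.046 and 0.049 with limma on RPKM plus 1 and plus 0.1.

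Of 11 receptor and decoy genes, 8 were tested and 0 called. Tnfrsf1a, a receptor of TNF, had a log2 fold change of 0.13 (edgeR, adjusted p = 0.689), which turned to -0.015 with the correction for exon length. It was 0.22 without plasma-negative replicate 4 and 0.078 without replicate 1 of that group. Of 8 genes of the IL-10 and STAT3 arm, 7 were tested and 0 called, with a median of -0.02. Jak1, the kinase bound to the IL-10 receptor, stood at 221 ± 25.8 and 218 ± 13.8 CPM (SD, n = 4). Its log2 fold change of -0.02 had a 95% interval of -0.28 to 0.24 (edgeR, adjusted p = 0.968) and took either sign across the scalings. Il10 itself was listed at 0 in all 8 libraries.

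The 10 genes of inflammasome assembly and cytokine release were all tested and 1 was called. Ctsb, the lysosomal protease cathepsin B, rose from 3023 ± 101 to 4088 ± 282 CPM (SD, n = 4; edgeR, log2 fold change 0.44, adjusted p = 0.00489). Its plasma-negative values were 3017, 3129, 2889 and 3056 CPM and its plasma-positive values 3770.1, 4352, 3932 and 4296 CPM, and it was called whichever of the 8 libraries was removed. Nlrp3, the sensor of the inflammasome that processes the precursors of Il1b and Il18, was named after its values were seen. It stood at 36.9, 25.9, 46.7 and 46.4 CPM in plasma-negative and at 16.2, 16.7, 17.2 and 25.5 CPM in plasma-positive replicates 1 to 4. The groups did not overlap, by a margin of under 1 CPM, and the log2 fold change of -1.04 did not pass (edgeR, adjusted p = 0.119), while DESeq2 called it (adjusted p = 0.0222).

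Of 15 other cytokines, 9 were tested and 0 called, and 4 (Il12a, Il12b, Lif and Ifnb1) were listed at 0 in every library. Il16, the highest of them per length, stood at 375 ± 22.5 and 384 ± 34.7 CPM (SD, n = 4; edgeR, log2 fold change 0.04, adjusted p = 0.924), and its sign turned to -0.079 with library totals only. Il27, which encodes a subunit of interleukin 27, was named after its values were seen. It stood at 5.93, 4.91, 5.76 and 6.39 CPM in plasma-negative and at 2.2, 0.407, 0.558 and 0.223 CPM in plasma-positive replicates 1 to 4, with no overlap. Its log2 fold change of -2.77 had a 95% interval of -4.77 to -0.76 and did not pass (edgeR, adjusted p = 0.187), while DESeq2 (adjusted p = 0.0354) and limma on RPKM plus 1 and plus 0.1 (0.0131 and 0.0253) called it.

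Of 17 chemokines and other genes that NF-kB is known to induce, 10 passed the filter and 1 was called. Their log2 fold changes were all above 0 with a median of 0.49, where 6695 of all 13277 tested genes were above 0. The sign of Ccl5 was fixed, since it entered the test through the plasma-positive group alone. Genes that failed the filter are not in this count. Ccl5, a chemokine that attracts T cells and monocytes, had 0 counts in every plasma-negative library (edgeR, adjusted p = 0.00473). It stood at 23, 7.68, 25 and 11.5 CPM in plasma-positive replicates 1 to 4. Their mean of 16.8 CPM was 16.6 times the highest plasma-negative floor, which covers counting error only. Cxcl2, Ptgs2 and Nos2, which strongly stimulated macrophages express, were listed at 0 in all 8 libraries. Among 14 genes known to respond to cell dissociation, 10 were tested and 1 called higher, where 0.844% of all tested genes were. It was Egr1, at 0 to 0.133 CPM in plasma-negative and 1.79 to 12.4 CPM in plasma-positive libraries (edgeR, adjusted p = 0.0267). Its plasma-negative libraries had at most 3 counts, so it entered the test through the plasma-positive group. The call was lost whichever library was removed (adjusted p 0.0508 to 0.0957), at fitted log2 fold changes of 6.53 to 9.49 against 6.99. It was also lost with the replicate number as a block (adjusted p = 0.0906), the block and length correction together (0.149) and limma-voom (0.0871). Counting the main fit, 10 of 22 fits called it. The fitted values rest on plasma-negative counts of 3 or fewer and are no measure of size. Limma on RPKM plus 1 and plus 0.1 gave 1.06 and 3.38. Summed, the 14 reached 1256 to 1395 CPM in plasma-negative libraries and 1146 to 1406 CPM in plasma-positive ones.

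**Figure D4:**
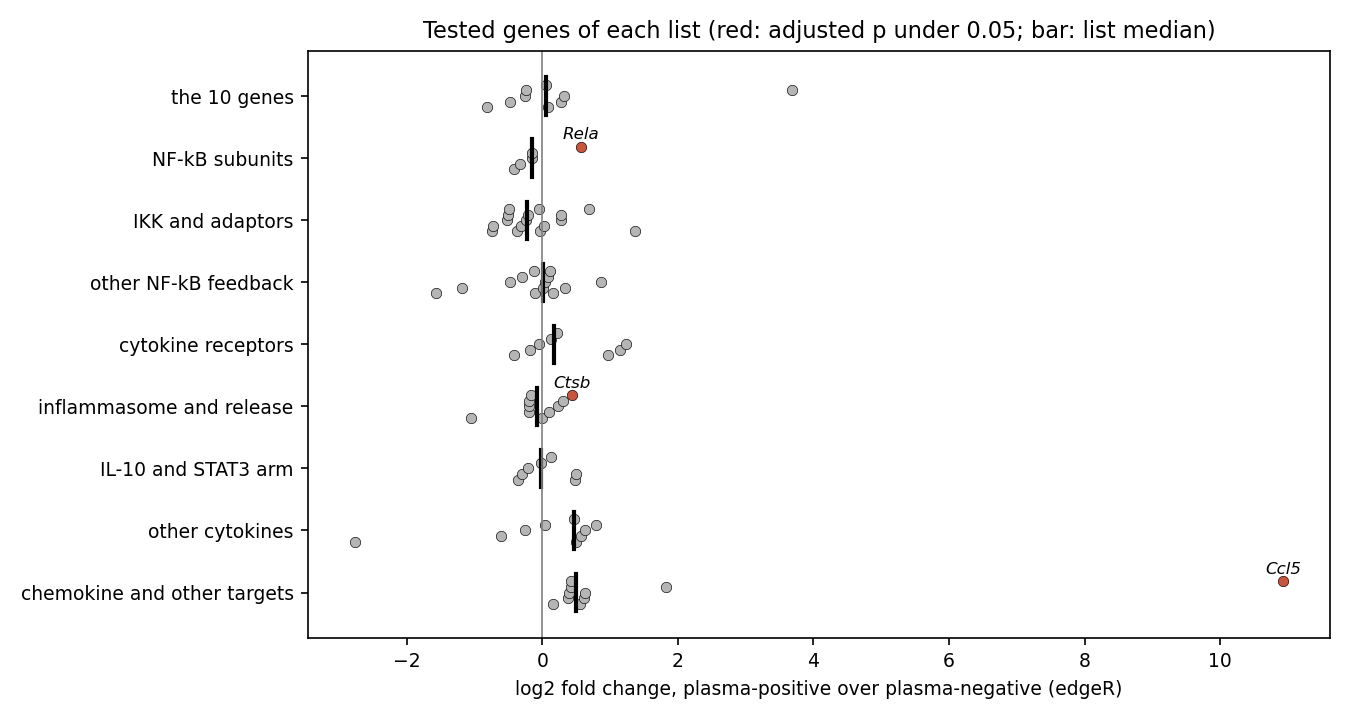
Log2 fold change of every tested gene of the members and the 8 pathway lists, with called genes in red and the list median as a bar. Rela, Ctsb and Ccl5 are the called genes; the fitted value of Ccl5 rests on plasma-negative counts of 0 and is no measure of size.

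The libraries carried the markers of their labelled cell type. The 10 microglial markers summed to 67573 to 80195 CPM in plasma-negative and 75285 to 81248 CPM in plasma-positive libraries, and none was at 0. Of them 2 (Csf1r and Olfml3) were called higher, where 0.844% of all tested genes were, with a list median of 0.15. Groups did not overlap for 3 of them higher and 1 lower, where 5.68% and 4.59% of all tested genes did not. Transcripts of other cells were uneven. The 6 oligodendrocyte markers summed to 157 to 230 CPM in plasma-negative libraries and 222 to 514 CPM in plasma-positive ones, with the 5 tested above 0 (median 0.80), 0 called and 1, Cnp, not overlapping higher (5.68% of all tested genes). The 6 astrocyte markers summed to 214 to 327 against 208 to 294 CPM, mostly Slc1a3, with 3 of the 4 tested above 0 (median 1.94) and 0 called, and endothelial markers to 18.5 to 36.7 against 17.4 to 59.1 CPM. The 6 neutrophil markers summed to 959 CPM in plasma-positive replicate 3 and to at most 2.1 CPM in the other 7 libraries, with Retnlg and Cxcr2 at 0 in all. The 6 monocyte markers summed to 49.4 CPM in that library and to 0 to 14.9 CPM in the others. The 8 neuron markers summed to 299 CPM in plasma-positive replicate 2, to 70.6 in plasma-positive replicate 1 and to 2.69 to 34 CPM in the rest, with the 4 tested above 0 (median 2.09) and 0 called. Border macrophage markers summed to 0.881 to 3.61 CPM in plasma-negative and to 1.76, 12.8, 1.98 and 16.5 CPM in plasma-positive replicates 1 to 4, with Cd163 and Lyve1 at 0 in all. The 8 lymphocyte markers summed to at most 1.17 CPM.

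Plasma-positive replicate 3, the library with neutrophil markers, had 0 counts of Il1b and 1.22 CPM of Il1rn. Plasma-positive replicate 1, where the neutrophil and the monocyte markers each summed to 0.11 CPM, had the highest level of both, 9.57 CPM of Il1b and 3.96 CPM of Il1rn. That library also had the highest sum of endothelial markers, 59.1 CPM. Its neuron and oligodendrocyte markers summed to 70.6 and 302 CPM, below plasma-positive replicate 2 alone. Border macrophage markers were higher in plasma-positive replicates 2 and 4 than in any plasma-negative library. The part of other cell types in Il1b and Il1rn was not tested. Leaving out plasma-positive replicates 2 and 3 together, an alternative chosen after seeing the data, 0 of 10 members and 15 of all genes were called.

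**Figure D5:**
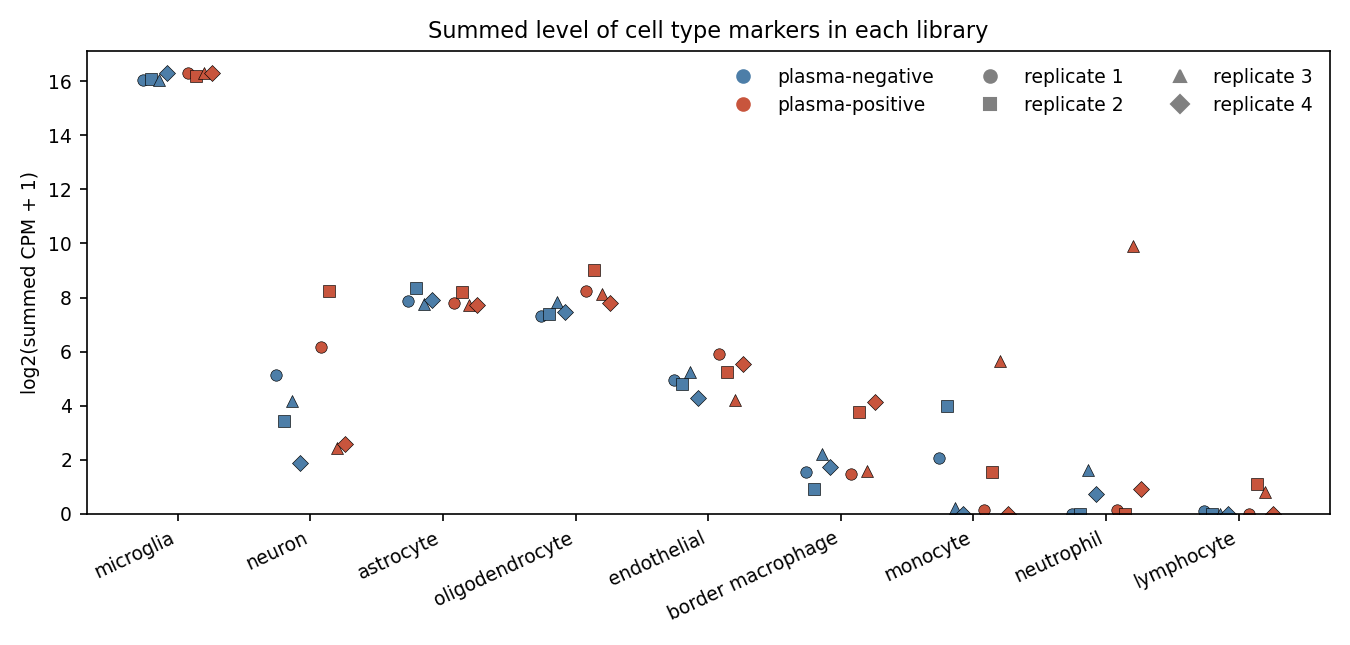
Summed CPM of each marker list, as log2(summed CPM + 1), for the 4 plasma-negative (blue) and 4 plasma-positive (red) libraries. Microglial markers are highest in every library, oligodendrocyte markers reach 514 CPM in plasma-positive replicate 2, and neutrophil markers reach 959 CPM in plasma-positive replicate 3 alone.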

How the data were processed

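Per the submitters' processing notes, bcl2fastq, Trim Galore, STAR and HTSeq were used with genome mm10; versions, strand setting and treatment of multi-mapping reads are not given in the sources used here. RNA came from an RNeasy Plus Micro kit and libraries from Smart-seq2, which has no molecular identifiers, per the labels' protocols. The deposited counts are whole reads per gene, and the authors' RPKM values are reads scaled to exon length and library size, per the file headers. Exon lengths recovered from both tables were within 1% of GENCODE M21 for 99.4% of genes.

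The test was run in edgeR 4.0.16 under R 4.3.3 (TMM factors, default filter by group, quasi-likelihood F test of group, Benjamini-Hochberg adjustment over 13277 genes); intervals use the fitted standard error. Floors are 3 counts per library and cover counting error only. The procedure was tested on simulated data. Alternatives were other scalings and filters, DESeq2 1.42.0, limma 3.58.1 (voom, and log2 of RPKM plus 1 or 0.1), thinning to 2963094 counts, a loess correction for exon length (span 0.3), the replicate number as a block, and leaving out each library.

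The members, lists and tests were chosen with earlier results of these data known. Named besides the members were up to 4 called genes of each list, or else its highest gene by RPKM; for Il1b and Nfkbia, the 3 most alike genes. Il27 and Nlrp3 were added after their values were seen.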

Additional observations from a re-analysis of the deposited data

Results flagged for a closer look

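Among 40 groups of 4 libraries of the named genes, 4 held a library far from the other 3, where chance gives about 1 in 20. Il1b was at 0.873 CPM in plasma-negative replicate 3 (15 counts), against 0 in the other plasma-negative libraries. Egr1 was at 0.133 CPM in plasma-negative replicate 1 (3 counts), against 0 in the other plasma-negative libraries. For Il1b and Egr1 any value above 0 would stand apart, since the other 3 libraries are at 0, and 3 counts are no more than the floor used here. Il27 was at 2.2 CPM in plasma-positive replicate 1 (20 counts), against 0.558 CPM in the nearest other library of its group. Nlrp3 was at 25.5 CPM in plasma-positive replicate 4 (228 counts), against 17.2 CPM in the nearest other library of its group.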

How the results depend on the processing

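No member was called under any of the 22 alternatives that could fit it. The count of all genes called was 187 and moved to 694 with DESeq2, 447 and 432 with limma on log2(RPKM + 1) and log2(RPKM + 0.1), and 66 with the length correction. It was 66 to 203 without single libraries and 15 without plasma-positive replicates 2 and 3. The higher share of calls was 59.9%, against 28.2% with library totals only, where the median of all genes was -0.11, 47.8% with DESeq2, 86.8% and 85.6% with limma on RPKM (medians 0.11 and 0.16), 70.3% with the block and 69.7% with the length correction. A replicate block left 74 genes and 0 members called, and 10 genes with the block and length correction together. Same-numbered libraries deviated together by correlations of 0.0109 to 0.0315 across genes, so the numbers are not shown to pair them.

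Signs that turned, none of them in a called gene, were as follows. For Tnf it was 0.12 with the block and 0.22 without plasma-negative replicate 1 (range -0.89 to 0.22 over single libraries left out). For Il18 it was -0.029 with totals only, -0.13 with the length correction, -0.19 with the block too, and -0.19 to 0.24 without single libraries. For Il10ra the same settings gave -0.065, -0.073, -0.095 and -0.074 to 0.14. Zfp36 was at 0.046 and 0.049 in the RPKM fits and -0.28 to 0.039 without single libraries. Tnfrsf1a was at -0.015 with the length correction and -0.012 with the block too. Il16 was at -0.079 with totals only and -0.025 to 0.079 without single libraries. Jak1 was at 0.0036 with upper quartile, 0.11 in both RPKM fits, 0.069 with the length correction, 0.075 with the block too, 0.0080 after thinning, and -0.092 to 0.042 without single libraries. The cause was not tested. Il1b was not fitted with the 1 CPM filter or after thinning, since it then failed the filter, Egr1 was not fitted after thinning, and Il1rn was fitted without a filter, in 5 of the 8 fits without a library and in the fit without plasma-positive replicates 2 and 3 (adjusted p 0.104 to 0.282). Il1b, Il1rn and Tnf had 3 counts or fewer in some libraries, where depth limits what can be said.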

Other observations

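Tnf took the same order of libraries in both groups, an order noticed in the data. Replicate 1 was highest, followed by replicates 3, 4 and 2, at 8.77, 4.37, 3.36 and 0 CPM in plasma-negative and 5.28, 3.65, 2.9 and 0.153 CPM in plasma-positive libraries. Ccl4, a chemokine from one of the lists, was also lowest in replicate 2 of each group, at 3.34 and 2.8 CPM. Il18 was lowest in replicate 2 and highest in replicate 4 of each group, and Il6 was lowest in replicate 3 of each, with the other replicates in different orders. Other members did not match. Nfkbiz was highest in replicate 1 of the plasma-negative group (14.4 CPM) and lowest in replicate 1 of the plasma-positive group (8.91 CPM). Il10ra was highest in plasma-negative replicate 4 (422 CPM) and plasma-positive replicate 3 (508 CPM).

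Cxcl10, an interferon-induced chemokine that did not pass the filter, had 0 counts in every plasma-negative library and 0.11, 4.73, 0 and 16.2 CPM in plasma-positive replicates 1 to 4. Cd40 was at 0, 0, 0.699 and 0 CPM in plasma-negative and at 0.33, 0, 3.96 and 2.68 CPM in plasma-positive replicates 1 to 4. Il33 was at 0 in every plasma-negative library and at 6.25 and 0.508 CPM in plasma-positive replicates 2 and 3, with 0 in the other two. These genes were picked after their values were seen and did not pass the filter of the test.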
